A study of Mus musculus with 6 samples.

Results

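The genes described are 10 genes of MHC class I peptide loading, chosen by name from the gene table with earlier results of these samples known, out of 25189 genes in the table. They are B2m, H2-K1, H2-D1, H2-T23, Tap1, Tap2, Tapbp, Tapbpl, Erap1 and Nlrc5. Because the choice drew on the comparison between the groups, every difference between the groups in these 10 genes is a description. Calls and intervals from the fit over all genes are printed for them to show size and spread; they come from the same libraries that guided the choice and are no independent test.

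RNA was sequenced in 6 libraries labelled as kidney from male wild-type C57BL/6 mice at day 2. All 6 come from ischaemia and reperfusion (I/R), an injury in which renal blood flow is stopped and then restored; 3 had I/R alone and 3 had I/R with C9, which the design text names as chemerin-9, a short peptide agonist of the chemerin receptor. No uninjured kidney was analysed here, and no label ties each library to a separate mouse, so p-values reflect only how these libraries vary, which may be technical. The treated columns of the table are headed IC, which was taken to abbreviate I/R plus C9, and every statement on chemerin-9 rests on that. The 3 titles of the treated group name C9, whereas the field for treatment names C9, C10 and C11.

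MHC class I molecules show short peptides from inside the cell to CD8 T cells and natural killer cells. Peptides cut by the proteasome are pumped into the endoplasmic reticulum by the transporter TAP, trimmed there by ERAP1, and fitted into a heavy chain and β2-microglobulin with the help of tapasin and general folding helpers. Tubule and endothelial cells of the kidney carry class I as most nucleated cells do, and interferons, NF-κB and the transactivator NLRC5 are known to raise the genes of the pathway.

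Of the 10 genes, 7 were lower in all 3 chemerin-9 libraries than in any I/R library: B2m, H2-K1, H2-D1, H2-T23, Tap1, Tap2 and Tapbp, by 30.8% to 41.7%. Erap1 went the other way and was 52.4% higher, again with no overlap between the groups. The groups overlapped for Tapbpl and Nlrc5. All 10 genes had passed the filter on low counts. In edgeR's quasi-likelihood fit, at a Benjamini-Hochberg adjusted p under 0.05, the same 7 were among the genes called lower and Erap1 among those called higher, from which nothing is read, since that contrast guided their choice. Of all 14184 genes tested, 51.7% were called, 26.1% lower and 25.6% higher. Groups that do not overlap were found in 58.5% of all tested genes, 29.2% lower and 29.3% higher. The median log2 fold change, chemerin-9 over I/R, was -0.62 over the 10 genes and -0.0037 over all tested genes. In RNA from bulk samples, fewer cells of a type and less RNA per cell cannot be told apart.

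The libraries held 11217252 to 16938301 counts, and values below are CPM, counts scaled to a common depth, on TMM-adjusted library sizes. I/R replicate 3 differed from the rest of its group: the chi-square per degree of freedom was 6.16 and 5.61 against I/R replicates 1 and 2, but 1.82 between those, and 1.95 to 2.27 between the chemerin-9 libraries. It was the highest I/R library for 6 of the 10 genes, so differences are also given without it, or for Tapbpl as a range with each library left out. Each library has its own batch value in the labels, so batch and group cannot be told apart; the values are 6 consecutive dates, and whether they mark real processing days is not known. The ribosomal RNA Rn18s took 0.381% to 0.517% of counts in I/R against 0.261% to 0.306% with chemerin-9, and mitochondrial genes 2.81% to 2.94% and 2.56% to 2.64%; their part in the differences was not tested.

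Of 14 tubule and podocyte markers, 8 had a row and 4 passed the filter on low counts. The median level of the 8 within a library was 1.35 to 1.89 CPM. Over all tested genes, a set without those below the filter, it was 25.7 to 26.3 CPM. Lrp2, the megalin of proximal tubules, stood at 3.19 ± 0.531 CPM in I/R against 3.37 ± 0.747 CPM with chemerin-9 (mean ± SD, n = 3 here and below), and the collecting duct water channel Aqp2 at 0.0926 ± 0.0821 and 0.107 ± 0.0938 CPM. The highest were Pax8, a transcription factor of renal epithelium, at 45.5 ± 1.65 CPM in I/R and the water channel Aqp1 at 18.2 ± 0.201 CPM. Of the fibroblast and matrix genes, Col1a1 and Vim were at 771 ± 28.2 and 1366 ± 38.3 CPM in I/R, and Col3a1 and Pdgfra at 15.8 ± 0.590 and 8.45 ± 1.10 CPM. Defining tubule markers such as Lrp2, Cubn and Aqp2 were thus low or near 0 while Pax8 was above the median tested gene, and kidney is named here as the labels give it.

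Class I promoters are known for a short set of elements: an interferon-stimulated response element, an NF-κB site, and the SXY module on which NLRC5 acts with RFX, CREB or ATF and NF-Y. The promoters of the heavy chains and B2m, and that of Erap1, are printed because these genes differ in direction between the groups. They are RefSeq promoters on GRCm38.p6, 5′ to 3′ on the gene's strand, 180 bases before to 20 after the start, and 7 of the 10 genes had an entry, all but Tap2, Tapbpl and Nlrc5. Capitals mark every match, on either strand, to the core of the interferon-stimulated response element, the core of the NF-κB site, TGACGC (the X2-like part of SXY, GCGTCA on the other strand) and CCAAT (the Y box, ATTGG on the other strand).
B2m: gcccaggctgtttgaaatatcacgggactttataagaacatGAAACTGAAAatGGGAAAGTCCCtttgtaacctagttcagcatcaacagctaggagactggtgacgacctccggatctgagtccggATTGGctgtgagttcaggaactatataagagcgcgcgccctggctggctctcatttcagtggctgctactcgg
H2-K1: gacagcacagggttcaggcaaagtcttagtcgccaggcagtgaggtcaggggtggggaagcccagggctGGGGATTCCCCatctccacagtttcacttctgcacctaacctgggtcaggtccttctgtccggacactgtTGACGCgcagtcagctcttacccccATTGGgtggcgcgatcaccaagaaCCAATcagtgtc
H2-D1: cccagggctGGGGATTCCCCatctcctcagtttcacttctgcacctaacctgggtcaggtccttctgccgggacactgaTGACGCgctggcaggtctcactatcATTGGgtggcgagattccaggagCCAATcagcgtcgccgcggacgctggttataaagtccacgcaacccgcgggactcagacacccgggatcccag
H2-T23: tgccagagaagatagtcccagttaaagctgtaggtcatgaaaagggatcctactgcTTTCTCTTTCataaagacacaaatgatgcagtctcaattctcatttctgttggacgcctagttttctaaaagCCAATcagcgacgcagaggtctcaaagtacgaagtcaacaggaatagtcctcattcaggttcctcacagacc
Erap1: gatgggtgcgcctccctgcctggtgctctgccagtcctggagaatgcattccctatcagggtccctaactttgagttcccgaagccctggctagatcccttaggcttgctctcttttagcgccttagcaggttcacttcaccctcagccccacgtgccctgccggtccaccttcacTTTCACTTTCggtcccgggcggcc
B2m lies at chr2:122147507-122147706 on the plus strand, H2-K1 at chr17:34000328-34000527 on the minus strand, H2-D1 at chr17:35262914-35263113 on the plus strand, H2-T23 at chr17:36032682-36032881 on the minus strand and Erap1 at chr13:74639673-74639872 on the plus strand.

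In the window from 250 bases before to 50 after the start, an exact match to the core of the interferon element was present in B2m, H2-T23 and Erap1. It was present in 3.44% of all 32851 promoters searched. In B2m it lay at -139 to -130, in H2-T23 at -124 to -115, and in Erap1 it straddled the start from -4 to 6. Matches to this core, which leaves 2 of its bases free, were thus present in the gene that was higher and in 2 of those that were lower. Only exact matches were sought, so a promoter without one may still hold a variant of the element. The NF-κB letters were present in B2m, H2-K1 and H2-D1 and in 20.7% of promoters; in B2m, 2 overlapping matches on opposite strands began at -127 and -126. The X2-like letters were present in H2-K1 and H2-D1 alone among the 7 and in 7.40% of promoters. A Y box was present in 6 of the 7, all but Erap1, and in 37.4% of promoters. TTCNNNGAA, the GAS element of interferon-γ responses, which reads the same on both strands, was in none of the 7 and in 8.30% of promoters. The windows of H2-K1 and H2-D1 were identical at 211 of 239 aligned bases (88.3%), with a shared run of 47 bases that includes the NF-κB letters. These shares are per promoter. Counted per gene, with a match in any of its promoters, they were 3.99%, 22.9%, 8.37%, 41.1% and 9.55% in the order given. H2-K1 had 2 promoter entries that held the same motifs, and promoter 1 is printed. A match is a description of letters, not of binding.

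**Figure D1:**
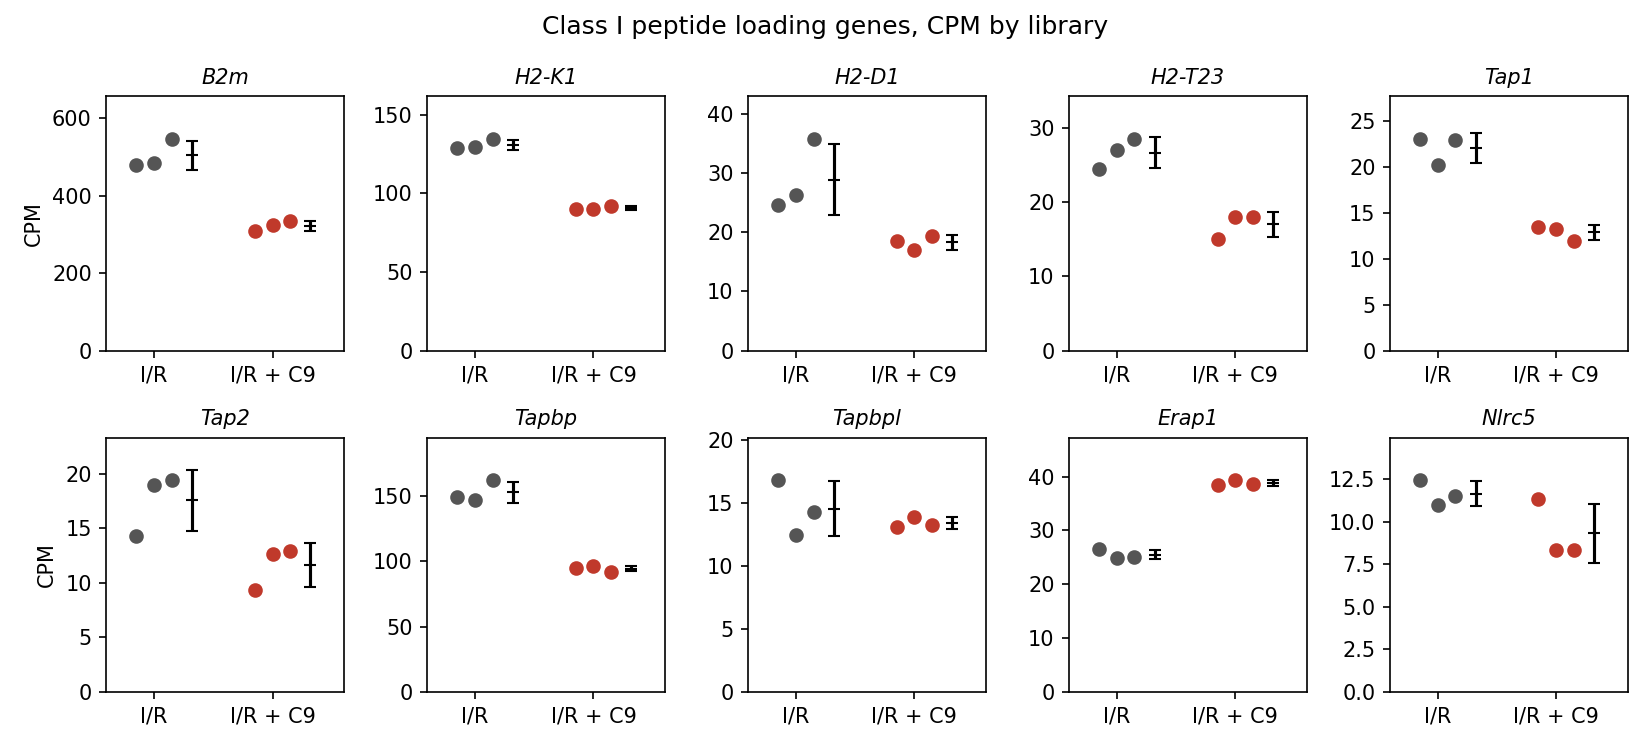
CPM (linear axis from 0) of each of the 10 genes in the 3 I/R libraries (grey) and the 3 libraries of I/R with chemerin-9 (C9, red); points are libraries and bars are the mean ± SD. For B2m the I/R libraries sit between 481 and 547 CPM and the others between 309 and 335 CPM, and Erap1 is the one panel in which the red points are all above the grey.

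The light chain of every class I molecule was the most abundant of the transcripts. B2m (ENSMUSG00000060802, chr2:122147686-122153083, plus strand), which encodes β2-microglobulin, was at 481, 485 and 547 CPM in I/R and at 309, 326 and 335 CPM with chemerin-9. All I/R libraries were above all chemerin-9 libraries, and I/R replicate 3 was the highest of the 6. The log2 fold change was -0.64 (SE 0.05, 95% interval -0.74 to -0.54), and -0.58 without I/R replicate 3.

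The heavy chains bind the peptide. H2-K1 (ENSMUSG00000061232, chr17:33996017-34000333, minus strand), a classical heavy chain, was at 129, 130 and 135 CPM in I/R and at 89.8, 89.8 and 92.3 CPM with chemerin-9. Replicates lay close together in both groups and the groups were far apart. Its log2 fold change was -0.53 (SE 0.04, 95% interval -0.62 to -0.44), and -0.51 without I/R replicate 3. H2-D1 (ENSMUSG00000073411, chr17:35262730-35267499, plus strand), the other classical heavy chain, was at 24.6, 26.2 and 35.7 CPM in I/R and at 18.5, 16.9 and 19.4 CPM with chemerin-9. The groups did not overlap, but I/R replicate 3 stood well above the other I/R libraries. The log2 fold change of H2-D1 was -0.67 (SE 0.12, 95% interval -0.93 to -0.40) with that library and -0.48 without it. H2-T23 (ENSMUSG00000067212, chr17:36029773-36032855, minus strand) encodes Qa-1, a non-classical heavy chain that presents leader peptides of other class I chains to natural killer receptors. It was at 24.4, 27.0 and 28.5 CPM in I/R and at 15.1, 18.1 and 17.98 CPM with chemerin-9. Again no chemerin-9 library reached an I/R library, and the log2 fold change was -0.64 (SE 0.10, 95% interval -0.85 to -0.44), or -0.59 without I/R replicate 3.

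The light chain and the heavy chains kept nearly the same proportion of reads. B2m had 2.71, 2.65 and 2.75 reads per read of the 3 heavy chains together in I/R and 2.51, 2.61 and 2.58 with chemerin-9. The ranges did not overlap, but they differed far less than the levels themselves. H2-K1 made up 67.7% to 72.4% of the heavy-chain reads in I/R against 71.2% to 72.8% with chemerin-9, and these ranges overlap. Heavy chains resemble each other: the closest transcripts to H2-K1 were H2-Q4, identical at 91.4% over 945 bases, and H2-D1, at 91.3% over 1050 bases, and H2-T23 and H2-D1 were identical at 94.3% over 404 bases. No copy at 95% identity, spanning 300 bases and 50% of the shorter of the transcripts, was found for any of the 10 genes. That search took the longest transcript of each gene and kept the longest alignment to each other gene. A shorter but closer alignment could be missed. The sources used here do not give how reads that match several heavy chains were counted, so the split among these chains is uncertain.

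The transporter that carries peptides into the endoplasmic reticulum is a pair of half-transporters, and both transcripts were lower. Tap1 (ENSMUSG00000037321, chr17:34187553-34197225, plus strand) was at 23.02, 20.1 and 22.9 CPM in I/R and at 13.4, 13.3 and 12.0 CPM with chemerin-9. It had the most negative log2 fold change of the 10 genes, -0.78 (SE 0.10, 95% interval -0.99 to -0.57), and -0.75 without I/R replicate 3. The groups were well separated. Tap2 (ENSMUSG00000024339, chr17:34203527-34216321, plus strand) was at 14.3, 18.9 and 19.4 CPM in I/R and at 9.33, 12.6 and 12.9 CPM with chemerin-9. Its libraries spread more, with replicate 1 the lowest in each group, and the gap between the lowest I/R and the highest chemerin-9 library was small. The log2 fold change of Tap2 was -0.59 (SE 0.14, 95% interval -0.89 to -0.29), and -0.51 without I/R replicate 3.

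Tapasin and its relative hold the heavy chain open while peptides are exchanged, and their transcripts differed. Tapbp (ENSMUSG00000024308, chr17:33915899-33929288, plus strand), which encodes tapasin, the bridge between TAP and the heavy chain, was at 149, 147 and 162 CPM in I/R and at 94.8, 96.3 and 92.2 CPM with chemerin-9. All chemerin-9 libraries were far below all I/R libraries. The log2 fold change was -0.70 (SE 0.05, 95% interval -0.80 to -0.60), and -0.65 without I/R replicate 3. Tapbpl (ENSMUSG00000038213, chr6:125223933-125231860, minus strand) encodes TAPBPR, a tapasin relative that edits peptides outside the loading complex. It was at 16.8, 12.5 and 14.3 CPM in I/R and at 13.1, 13.9 and 13.3 CPM with chemerin-9. The groups overlapped, with I/R libraries both above and below the others, and the log2 fold change was -0.11 (SE 0.12, 95% interval -0.36 to 0.14). With each library left out in turn, the log2 fold change of Tapbpl ran from -0.21 to -0.0042. Tapbp had 8.87, 11.8 and 11.3 reads per read of Tapbpl in I/R and 7.25, 6.92 and 6.94 with chemerin-9. Every I/R library had the larger ratio, but this mostly repeats the fall of Tapbp and is no further result. The whole of Tapbpl is overlapped by Vamp1 on the opposite strand, which rose from 35.9 ± 3.64 to 44.9 ± 2.13 CPM (log2 fold change 0.33, edgeR adjusted p = 0.0022). The kit is stranded per the labels, but whether counting used the strand is not stated in the sources at hand, and reads of the pair may be mixed. Tapbp shares 3421 bases with Zbtb22 on the same strand, which strand cannot separate; Zbtb22 was at 19.0 ± 1.58 and 17.9 ± 1.67 CPM and was not called. On opposite strands, Tap2 shares 3148 bases with Gm15821 and H2-T23 shares 3083 bases with A930015D03Rik, and both partners were below 1 CPM in each group. Shared lengths here and below are of whole gene spans with introns, and the overlap of exons was not measured.

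Erap1 (ENSMUSG00000021583, chr13:74639568-74693201, plus strand) encodes the aminopeptidase that trims peptides to the length class I accepts. It was at 26.5, 24.96 and 25.1 CPM in I/R and at 38.4, 39.4 and 38.7 CPM with chemerin-9. It was the one gene of the 10 that was higher in all chemerin-9 libraries, and its replicates lay within a narrow range in both groups. Its log2 fold change was 0.61 (SE 0.07, 95% interval 0.47 to 0.75), and 0.59 without I/R replicate 3. Against the transporter that supplies its peptides, Erap1 had 1.15, 1.24 and 1.09 reads per read of Tap1 in I/R and 2.86, 2.97 and 3.23 with chemerin-9. Erap1 was higher and Tap1 lower in all chemerin-9 libraries, so the ratio had to separate the groups and is no further result. At one end Erap1 shares 834 bases with Cast, the calpain inhibitor gene on the opposite strand, which fell from 179 ± 7.15 to 149 ± 2.66 CPM (log2 fold change -0.26, edgeR adjusted p = 7.1e-05), the opposite direction to Erap1. Per the longest transcript, Erap1 and B2m had a GC content of 41.5% and 41.2%, and the other 8 genes 52.6% to 57.1%. With the trend of fold change on GC content and transcript length removed, Erap1 had a log2 fold change of 0.49, B2m of -0.64 and H2-K1 of -0.44.

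Nlrc5 (ENSMUSG00000074151, chr8:94434356-94527272, plus strand) encodes the transactivator of class I genes. It was at 12.4, 10.996 and 11.5 CPM in I/R and at 11.3, 8.33 and 8.32 CPM with chemerin-9. Chemerin-9 replicate 1 lay among the I/R libraries and the other two lay below them, so the groups overlapped. The log2 fold change was -0.33 (SE 0.14, 95% interval -0.62 to -0.04), and the gene was not among those called by edgeR. Without chemerin-9 replicate 1 the log2 fold change was -0.49, and without I/R replicate 3 it was -0.34; in both cases the gene was among those called. Over all ways of leaving out 1 library it ran from -0.49 to -0.26.

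**Figure D2:**
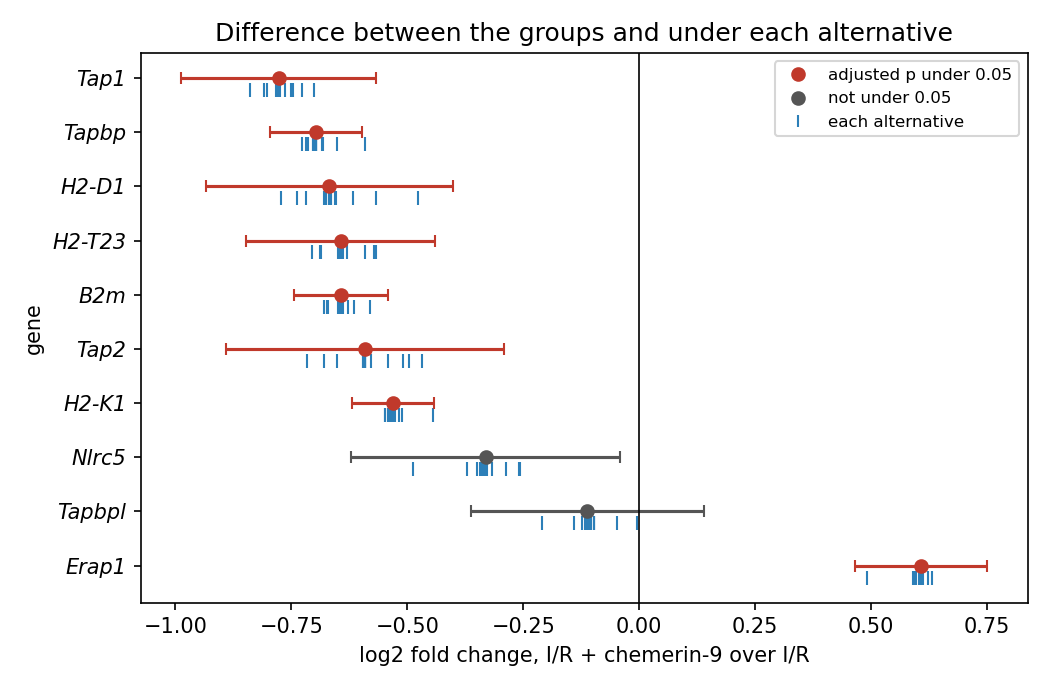
Log2 fold change, I/R with chemerin-9 over I/R, of the 10 genes (points, with 95% intervals from edgeR) and under each alternative processing (blue ticks); red points had an adjusted p under 0.05. Tap1 is at -0.78, Erap1 at 0.61, and no tick of any gene crosses 0, the closest being Tapbpl.

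In the authors' deposited table the 10 genes had the same directions, with a log2 fold change of -0.65 for B2m, -0.78 for Tap1, 0.60 for Erap1 and -0.33 for Nlrc5. These values are for the same libraries, whose counts the same table holds, so they are no independent check.

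**Figure D3:**
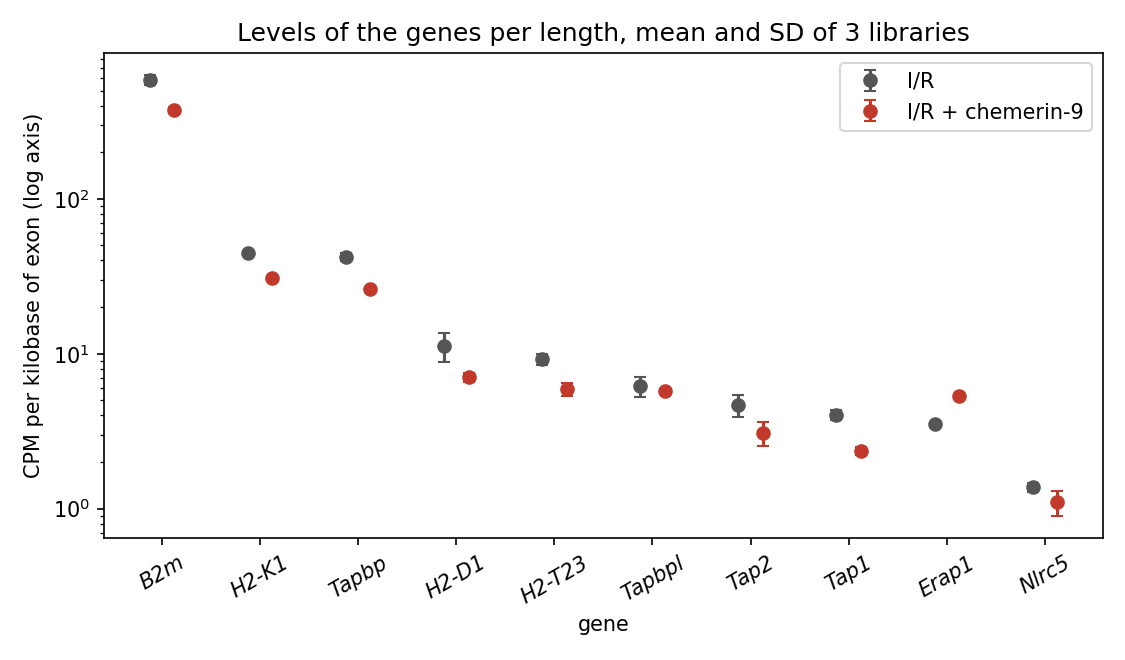
Level of each gene in CPM per kilobase of merged exon (log axis), mean ± SD over the 3 I/R libraries (grey) and the 3 with chemerin-9 (red). B2m, at 587 and 376 CPM per kilobase, stands far above the rest, and Erap1 is the one gene whose red point is above the grey.

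Levels per length ran over a wide range. In I/R the order in CPM per kilobase of merged exon was B2m at 587 ± 43.3, H2-K1 at 44.6 ± 1.11, Tapbp at 42.2 ± 2.27, H2-D1 at 11.2 ± 2.34, H2-T23 at 9.23 ± 0.718, Tapbpl at 6.18 ± 0.928, Tap2 at 4.65 ± 0.744, Tap1 at 4.02 ± 0.300, Erap1 at 3.50 ± 0.115 and Nlrc5 at 1.37 ± 0.0865. Libraries of neighbours in this order overlapped for H2-K1 and Tapbp, for H2-D1 and H2-T23, and for Tap2 and Tap1, and these pairs have no order beyond their spread. B2m was above 99.8% of all tested genes on this scale, and Nlrc5 above 19.9%. With chemerin-9, Erap1 at 5.33 ± 0.0653 CPM per kilobase stood above both transporter genes, Tap2 at 3.07 ± 0.528 and Tap1 at 2.35 ± 0.146, moving from rank 9 to rank 7. There H2-T23, at 5.90 ± 0.587, and Tapbpl, at 5.71 ± 0.189, overlapped. With the longest transcript as the length, Tap1 and Tap2 changed places in I/R, at 5.63 and 5.10 CPM per kilobase. H2-K1 and Tapbp were then further apart in I/R, at 69.9 and 52.8 CPM per kilobase. On that length Erap1 with chemerin-9 was at 6.88, above H2-T23 at 6.45 and Tapbpl at 5.71, so its rank depends on the length used.

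Genes that act before and beside the loading complex were taken from lists fixed by function, with earlier results of these data known. Counts in every list stand beside 26.1% of all tested genes called lower and 25.6% called higher. Among the 7 helpers that fold the glycosylated heavy chain, 6 fell and edgeR called none higher (1 at an unadjusted p under 0.05, 0 with DESeq2 and 1 with limma-voom), with a median log2 fold change of -0.46. Calr, calreticulin, the chaperone of the loading complex, fell most, from 1215 ± 19.0 to 519 ± 6.88 CPM (log2 fold change -1.23, edgeR adjusted p = 1.7e-13). Pdia3, the disulfide isomerase joined to tapasin, fell from 653 ± 11.3 to 459 ± 6.12 CPM (log2 fold change -0.51, edgeR adjusted p = 4.7e-09), and Canx, calnexin, which holds new heavy chains, from 1340 ± 39.7 to 976 ± 16.1 CPM (-0.46, edgeR adjusted p = 1.1e-08). The glucosidase II subunits Prkcsh and Ganab fell by 0.58 and 0.25 on the log2 scale and the glucosidase I gene Mogs fell by 0.29. Uggt1, which checks folding by adding glucose back, was at 0.09 (edgeR adjusted p = 0.060). These helpers serve many glycoproteins besides class I.

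On the supply of peptides, 2 of the 4 tested genes of the immunoproteasome and its activator fell, and 0 rose by edgeR, an unadjusted p under 0.05, DESeq2 or limma-voom. They were the activator subunits Psme1, from 86.0 ± 5.17 to 67.9 ± 2.15 CPM, and Psme2, from 87.8 ± 6.33 to 68.7 ± 4.66 CPM, with log2 fold changes of -0.34 and -0.35. The inducible catalytic subunits did not pass the test: Psmb10 was at 7.44 ± 0.355 and 6.81 ± 0.166 CPM, and Psmb9, whose gene overlaps Tap1 by 212 bases on the opposite strand, at 2.06 ± 0.400 and 1.68 ± 0.579 CPM. Psmb8 was nearly absent, at 0.0809 ± 0.140 and 0.105 ± 0.0923 CPM, and was not tested. Of the 3 constitutive catalytic subunits, Psmb6 rose (log2 fold change 0.19, edgeR adjusted p = 0.0096) and 2 were not called, 1 of them lower at an unadjusted p under 0.05 and 0 lower with DESeq2 or limma-voom. For Psmb5, at 22.98 ± 10.2 and 16.2 ± 1.14 CPM, I/R replicate 3 was at 34.8 CPM and the other I/R libraries were at 17.5 and 16.7 CPM.

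Of 8 other peptide-trimming proteases, 3 fell and 3 rose, with a median of -0.04. The cytosolic aminopeptidase Npepps fell from 241 ± 8.79 to 154 ± 4.61 CPM (log2 fold change -0.64, edgeR adjusted p = 7.5e-09), and the peptidases Thop1 and Lap3 fell by 0.30 and 0.20 on the log2 scale. Nln, Tpp2 and Blmh rose, by 0.28, 0.16 and 0.13. Lnpep, the endosomal aminopeptidase related to Erap1, stood at 352 ± 10.7 and 352 ± 4.65 CPM. Of 8 genes of class I export and turnover, 6 fell and 1 rose, with a median of -0.21. Sec24d and Sec24c, cargo adaptors of the vesicles that leave the endoplasmic reticulum, fell by 0.62 and 0.51 on the log2 scale.

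**Figure D4:**
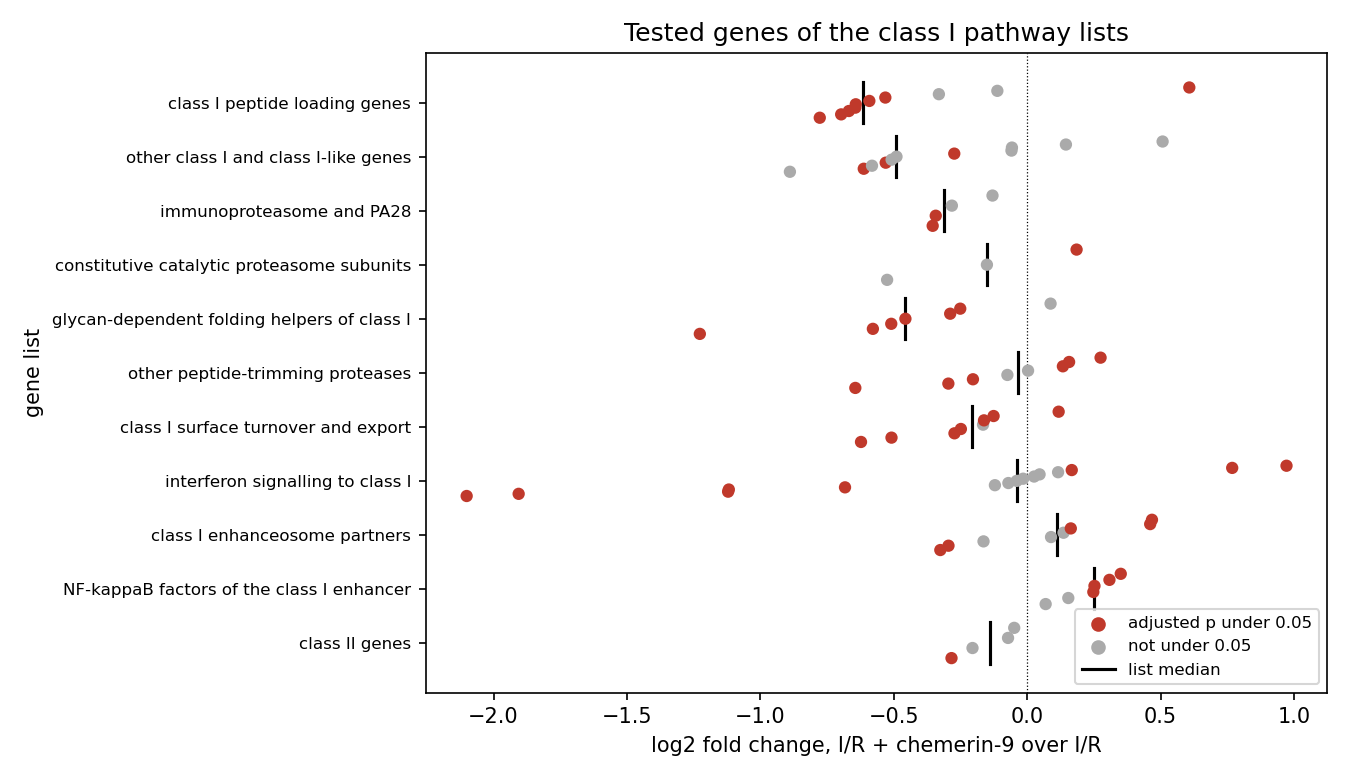
Log2 fold change, I/R with chemerin-9 over I/R, of every tested gene in each list (points; red for an adjusted p under 0.05 with edgeR) and the median of the list (black line). The folding helpers have a median of -0.46 and the NF-κB factors of 0.25, and the interferon signalling genes run from -2.10 to 0.97.

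Genes of the signals known to raise class I went both ways, and their part in the differences was not tested. Of 15 tested genes of interferon signalling, 5 fell and 3 rose, with a median of -0.04. Of all tested genes, 26.1% were called lower and 25.6% higher. Irf7, the interferon regulatory factor that is itself induced by interferon, fell from 44.97 ± 1.25 to 10.4 ± 1.88 CPM (log2 fold change -2.10, edgeR adjusted p = 5.2e-10). Among the others that fell were Stat2, from 107 ± 4.89 to 28.4 ± 2.03 CPM (-1.91), and Irf9, from 84.7 ± 2.67 to 38.9 ± 2.70 CPM (-1.12), which act in transcription downstream of type I interferon, and the receptor kinase Tyk2 (-0.68). Those that rose were Irf8 from 4.43 ± 0.851 to 8.61 ± 0.248 CPM (0.97), the receptor chain Ifnar2 from 6.13 ± 0.524 to 10.5 ± 0.622 CPM (0.77) and Jak2 (0.17, edgeR adjusted p = 0.042). Irf1, a factor that binds the interferon element of class I promoters, was at 40.3 ± 3.28 and 38.3 ± 2.01 CPM and was not called (edgeR adjusted p = 0.44).

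Of the 6 NF-κB genes 4 rose, by 0.25 to 0.35 on the log2 scale, and edgeR called 0 lower, as did an unadjusted p under 0.05, DESeq2 and limma-voom. Nfkb1, which makes the p50 subunit, rose from 106 ± 8.17 to 131 ± 3.80 CPM (edgeR adjusted p = 1.7e-04), and Nfkbia, the inhibitor, from 22.3 ± 1.68 to 28.4 ± 2.12 CPM (edgeR adjusted p = 0.0033). Of the 8 partners of NLRC5 on the SXY module, 2 fell and 3 rose. Rfx5 fell from 18.2 ± 2.63 to 14.8 ± 0.883 CPM with overlapping groups (edgeR adjusted p = 0.042) and Nfya fell by 0.33 on the log2 scale, while Creb1 rose by 0.47, Nfyc by 0.46 and Atf1 by 0.16.

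Other heavy chains were described apart. Of 26 class I and class I-like genes listed, 14 had a row and 11 were tested. Of the 11, 3 fell, beside 26.1% of all tested genes. EdgeR called 0 higher, as did an unadjusted p under 0.05, DESeq2 and limma-voom. The median of -0.49 was the value of H2-T10, which stood at 2.33 ± 0.128 and 1.65 ± 0.292 CPM and was not called. The non-classical H2-T22 fell from 71.7 ± 2.60 to 49.7 ± 1.33 CPM (log2 fold change -0.53, edgeR adjusted p = 9.8e-07), H2-Q4 from 46.9 ± 5.93 to 30.7 ± 1.46 CPM (-0.61, edgeR adjusted p = 2.7e-05), and Fcgrt, the neonatal Fc receptor that also pairs with β2-microglobulin, by 0.27 (edgeR adjusted p = 0.025). Mr1, which presents vitamin metabolites, was at 34.4 ± 2.71 and 32.9 ± 1.83 CPM, and H2-M3, which presents formylated peptides, at 16.4 ± 0.960 and 15.6 ± 2.82 CPM; neither was called. Of 13 class II genes 5 had a row and 4 were tested, and Cd74, the invariant chain, was the one that fell, from 56.3 ± 2.16 to 46.3 ± 0.983 CPM (-0.28, edgeR adjusted p = 6.2e-04). H2-Eb1, a class II beta chain, was at 0.0450 ± 0.0396 and 0.0536 ± 0.0469 CPM and was not tested, and Ciita, H2-Aa and H2-Ab1 were not analysed here.

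Markers of other cells that carry class I gave these levels. Leukocyte markers summed to 11.7 to 14.6 CPM in I/R against 10.8 to 13.2 CPM with chemerin-9; 5 of 16 had a row, 3 were tested, and 0 were called by edgeR, by an unadjusted p under 0.05, by DESeq2 or by limma-voom. Nkg7, a natural killer and T cell gene, was at 0 in all I/R libraries, but it did not pass the filter on low counts and was not tested. Endothelial markers, 5 of 8 with a row and 1 tested, summed to 5.56 to 6.49 CPM in I/R against 10.2 to 12.4 CPM with chemerin-9, which is mostly Flt1. The tubule and podocyte markers summed to 68.5 to 71.9 CPM in I/R against 48.3 to 57.6 CPM with chemerin-9. Cdh16 was at 0 in all chemerin-9 libraries, but it too was below the filter on low counts and was not tested. Of the 4 tested, Pax8 fell, from 45.5 ± 1.65 to 29.6 ± 3.17 CPM (log2 fold change -0.62, edgeR adjusted p = 8.7e-06), while Aqp1, Lrp2 and Cubn were at -0.04, 0.08 and 0.04 and were not called. Fibroblast and matrix markers, 9 of 11 with a row, summed to 2690 to 2816 CPM in I/R against 2137 to 2218 CPM with chemerin-9, but the list had no single direction: of 8 tested, 3 fell and 2 rose, with a median of -0.12. Vim fell from 1366 ± 38.3 to 853 ± 21.8 CPM and weighs most in the sum, Col1a2 and Acta2 fell by 0.30 and 0.49 on the log2 scale, and Pdgfrb and Col3a1 rose by 0.49 and 0.45. The summed levels of the endothelial, tubule and fibroblast lists, each led by a few genes, move with the group, as the 7 lower genes and Erap1 do, and their part in those differences was not tested.

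The MHC on chromosome 17 holds 6 of the 10 genes, between 33915899 and 36032855 (GRCm38), a span of 2.12 Mb. The table has 124 other genes there, of which 78 were tested: 30 fell (38.5%) and 7 rose (8.97%), with a median log2 fold change of -0.18, beside 26.1% and 25.6% of all tested genes. With the trend on GC content and length removed, 23 fell and 14 rose. The largest falls were those of H2-K2, a heavy-chain relative next to H2-K1, from 3.02 ± 0.388 to 1.09 ± 0.207 CPM (-1.46), of Aif1, a macrophage gene, from 1.85 ± 0.700 to 0.661 ± 0.405 CPM with overlapping groups (-1.44), of the tubulin gene Tubb5, from 1432 ± 36.7 to 760.0 ± 14.0 CPM (-0.91), and of Rnf5, a ubiquitin ligase of the endoplasmic reticulum (-0.84). The largest rises were those of Vwa7 (1.58), the nuclear phosphatase subunit Ppp1r10, from 34.3 ± 3.49 to 71.4 ± 3.56 CPM (1.05), Abhd16a (0.69) and the matrix gene Tnxb (0.63). H2-K2 had 11 to 51 counts per library and Aif1 had 4 to 38, and H2-K2 was identical to H2-K1 at 88.6% over 1014 bases.

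**Figure D5:**
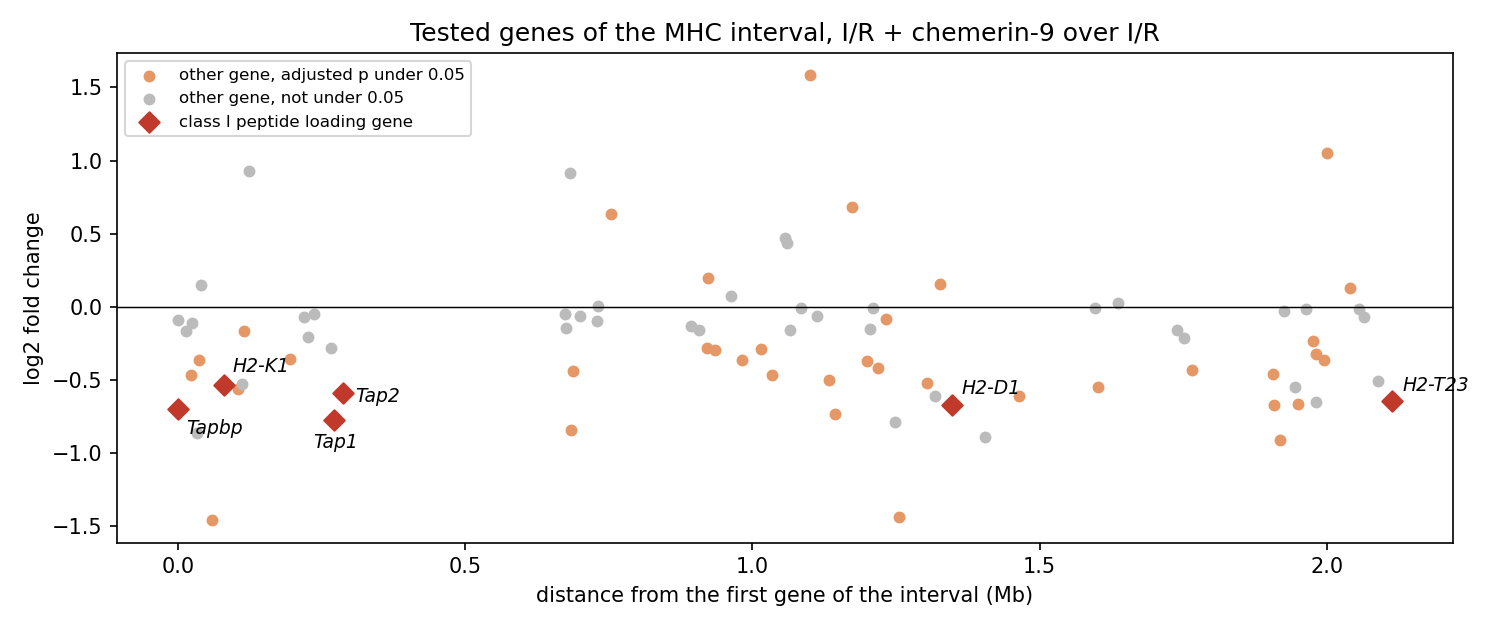
Log2 fold change, I/R with chemerin-9 over I/R, of the tested genes of the MHC interval against the distance of their start from the first of them (Mb, linear axis); diamonds are the 6 class I peptide loading genes, orange points other genes with an adjusted p under 0.05 with edgeR and grey points the rest. The 6 diamonds lie between -0.78 and -0.53, among other genes that run from -1.46 to 1.58.

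The genes whose centred log2 CPM profile over the 6 libraries was nearest to the median profile of the 10 genes were Ankrd1, Ptma, Mpst, Rtn4, Rpl9 and Npm1, among 10834 genes compared. Their root mean square differences were 0.0283 to 0.0374 log2 units. The 6 nearest to Nlrc5 were Hspd1-ps3, Dlx1as, Rnf25, Rps6ka4, Vps33b and Stx3, at 0.0525 to 0.0737 log2 units. All 6 libraries enter this measure, so the difference between the groups is part of the likeness.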

How the data were processed

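Per the labels' protocols, total RNA went into a stranded mRNA kit from Vazyme. HISAT2, HTSeq, DESeq 1.18.1 and mm10 are named in the submitters' processing notes; the annotation release and any use of strand in counting are not stated in the sources used here. The deposited table holds the authors' raw counts per gene symbol, and the authors' log2 fold change, fold ratio, p-value and FDR. Of 25216 rows, 27 repeated another row with the same counts and were dropped, leaving 25189 genes, 622 of them at 0 in every library. A gene with no row was not analysed here.

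Counts were tested with edgeR 4.0.16 (R 4.3.3): TMM, filterByExpr with the groups, the quasi-likelihood test of group over all 6 libraries with no covariate, and Benjamini-Hochberg adjusted p over 14184 tested genes, which held 99.8% of the counts. The depth is given in the report. CPM per kilobase uses merged exons of GENCODE M21 on GRCm38, where 95.9% of the 22908 matched genes had the same start. GC content was known for 96.2% of tested genes. Copies were searched with BLAST 2.17.0. The procedure was tested on simulated data in which only a small part of the genes differed between the groups. Many more were called here, so that test does not show how the procedure performs on data like these.

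The 10 genes and all lists were chosen with earlier results of these data known. The text names the 10 genes, up to 6 genes with the smallest p of each list plus a few set by role, the 4 largest falls and rises called in the MHC interval, and the 6 nearest profiles. One gene that this rule names is not reported here. Lnpep, Psmb5, Uggt1, Ifnar2, Jak2, Mr1, H2-M3, Vamp1, Cast, Zbtb22 and the marker genes were named beside these after their values were seen. Groups follow the titles. Alternatives were RLE and upper quartile size factors, DESeq2 1.42.0, limma-voom (limma 3.58.1), a robust prior, other count filters, a replicate block, each library left out, a threshold of 0.1, ribosomal, mitochondrial and haemoglobin genes left out, and a GC and length trend removed.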

Additional observations from a re-analysis of the deposited data

How the results depend on the processing

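Over the 16 alternatives run for each of the 10 genes, 9 genes kept their direction and their side of the threshold. All alternatives reuse the libraries that guided the choice of these genes. They show only how the values depend on processing and are no independent test. Nlrc5 kept its direction and passed the threshold under 7 of them: at -0.34 with the GC and length trend removed, -0.35 with limma-voom, -0.34 with no filter on low counts and -0.33 with a robust prior, besides the replicate block and the 2 left-out libraries below; the cause was not tested. DESeq2 did not call it. Genes called over all other alternatives ran from 3130 to 4207 lower and 3182 to 4131 higher. No result reversed.

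The same replicate number marks no known pair: deviations of same-numbered libraries correlated at 0.10, -0.05 and 0.04, and not every library correlated best with its own number. With the replicate block, Nlrc5 was at -0.33 and called, 1 constitutive proteasome gene was called lower in place of 0, and 3692 genes were called lower and 3608 higher.

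Small list counts moved, each for a cause that was not tested. Constitutive proteasome genes called lower went from 0 to 1 with the GC trend removed and to 2 with no filter or an adjusted p under 0.1. Folding helpers called higher went from 0 to 1 with limma-voom, the robust prior, upper quartile factors or an adjusted p under 0.1. NLRC5 partners called lower went from 2 to 1 with DESeq2, limma-voom or upper quartile factors. With the GC trend removed, other class I genes called higher went from 0 to 1, trimming proteases from 3 to 5 lower and from 3 to 1 higher, export and turnover genes from 1 to 0 higher, and the MHC interval from 7 to 14 higher.

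With each library left out in turn, all tested genes ranged from 3220 to 3691 lower and 3179 to 3632 higher, and Nlrc5 from -0.49 to -0.26. H2-D1 ranged from -0.77 to -0.48 and Tap2 from -0.72 to -0.47. Constitutive proteasome genes ranged from 0 to 2 lower and 0 to 1 higher, and NLRC5 partners from 1 to 2 lower. The H2-D1 value nearest 0 is the one without I/R replicate 3, and the lone call of Psmb6 was lost on leaving out replicate 2 of either group.

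Counts of 107 to 9020 per library stand behind the 10 genes. With 3 libraries a group, batch values that differ for every library and no uninjured control, the differences cannot be told apart from those of batch, and nothing here compares either group with healthy kidney.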
